A study of Homo sapiens with 8 samples.

Results

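Leukocyte adhesion molecules are the proteins on the surface of the endothelium that white blood cells hold on to when they leave the blood. The 10 genes described here were chosen by symbol: ICAM1, ICAM2, VCAM1, SELE, SELP, F11R, JAM2, JAM3, CD99 and ALCAM. All 10 were found among the 27946 genes of the expression table, each as its transcript with the highest mean level. RNA was sequenced from EA.hy926, an established hybrid line of human umbilical vein endothelium and lung carcinoma, in 8 libraries. The 3 ΔE2 libraries came from 3 clonal lines that had lost E2, an enhancer of the endothelial super-enhancer SE12313. The 3 ΔSE12313-b libraries came from 3 clonal lines that had lost another constituent of the same super-enhancer, chosen by the study as a negative control because it was inactive in vitro. Both deletions were made with a Cas9 ribonucleoprotein, and the 2 control libraries were of EA.hy926 that carried neither. All cells grew in high-glucose DMEM with 10% serum, and the labels name no cytokine treatment. The labels describe every library, the controls included, as clones, whereas the study speaks of a control cell line and, for another assay, of control cells given guide RNAs. Which of these gave the control RNA is unclear, so the effect of a deletion and that of deriving a clone cannot be told apart in a comparison with the control. None of the 10 genes lies on the chromosome that carries SE12313.

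Capture of a leukocyte starts with the selectins. SELE (E-selectin) is made after inflammatory stimulation, whereas SELP (P-selectin) is stored in the granules of endothelial cells. Firm arrest follows when leukocyte integrins bind members of the immunoglobulin superfamily: ICAM1 and ICAM2 are bound by the integrin of ITGAL and ITGB2, and VCAM1 by α4 integrins. ICAM2 is a constitutive molecule of resting endothelium, whereas ICAM1, VCAM1 and SELE are classical targets of NF-κB, the transcription factor activated by tumour necrosis factor. The junctional adhesion molecules F11R (JAM-A), JAM2 (JAM-B) and JAM3 (JAM-C) and the glycoprotein CD99 act at cell borders while a leukocyte passes through. ALCAM is the ligand of CD6 on T cells.

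The elements through which NF-κB acts are short, and they are printed here because these genes, known as targets of the same factor, were found at very different levels. The letters GGNNNTTCC, where N is any base, were searched on both strands of the 250 bases before the gene start in the RefSeq promoters of GRCh38.p14. A match was present in 17.1% of 34796 distinct promoters, and 1.88% had a match at more than 1 position. Of the 10 genes, 6 had a promoter in that table, and 3 of them had a match. The windows below run 5′ to 3′ on the strand of the gene, with the matching letters in capitals.
ICAM1, chr19:10270924-10270953: gctttagcttGGAAATTCCggagctgaagc
VCAM1, chr1:100719513-100719542: tcgaagatgaGGAAAAGCCtgtattttata
VCAM1, chr1:100719670-100719699: tccccttgaaGGGATTTCCctccgcctctg
SELE, chr1:169734186-169734215: taagcatcgtGGATATTCCcgggaaagttt
SELE, chr1:169734153-169734182: gatgccattgGGGATTTCCtctttactgga
The match of ICAM1 starts 186 bases before its gene start and reads the same motif on either strand. Those of VCAM1 start 219 and 62 bases before the gene start, the first of them on the opposite strand, and those of SELE 126 and 93 bases before it. The promoters of SELP, CD99 and ALCAM had no match in this window. A match is a description of the letters only, and binding was not measured.

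Levels are given as FPKM, the reads of a transcript per kilobase of its length, scaled to the reads of the library, so that genes can be compared with each other. The reads behind each value could be recovered, and libraries held from 12067557 to 19101150 reads. A gene was tested when its FPKM was at least 0.5 in at least 2 libraries, which left 13790 genes. Of the adhesion molecules 6 were tested (ICAM1, ICAM2, F11R, JAM3, CD99 and ALCAM) and 4 were below the minimum (VCAM1, SELE, SELP and JAM2). Differences are log2 fold changes of FPKM + 0.1 from limma, with a p adjusted by the Benjamini-Hochberg method over all genes tested. A gene rose or fell where that adjusted p was under 0.05, and it was called upregulated or downregulated where the change was also at least 2-fold. The counting spread of the 2 control libraries was small (chi-square per degree of freedom 1.19), whereas clones of 1 deletion differed from each other far more (3.98 to 22.8). Bulk RNA cannot tell fewer expressing cells from less RNA per cell, and no protein was measured.

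In control cells CD99 had the highest level, 149 ± 11.0 FPKM (SD, n = 2), which was 54.4% of the summed FPKM of the 10 genes and above 98.3% of all genes tested. ALCAM followed with 39.7 ± 1.49 and ICAM2 with 36.2 ± 2.34 FPKM, and the libraries of these neighbours in the order did not overlap (38.7 and 40.8 against 34.5 and 37.8). F11R with 18.9 ± 0.480 and JAM3 with 18.7 ± 0.187 FPKM did overlap and were not separated. ICAM1 was the lowest of the tested molecules, with 11.3 ± 0.0339 FPKM. The order differed in the clones. In both deletions ICAM2 stood first, with 52.9% of the sum in ΔE2 and 51.3% in ΔSE12313-b against 13.2% in the control, and CD99 second with 20.7% and 28.0%. The 10 genes summed to 274 FPKM in the control. The sum was 468 FPKM for ΔE2 and 461 for ΔSE12313-b. F11R and JAM3 overlapped again in ΔSE12313-b but not in ΔE2.

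**Figure D1:**
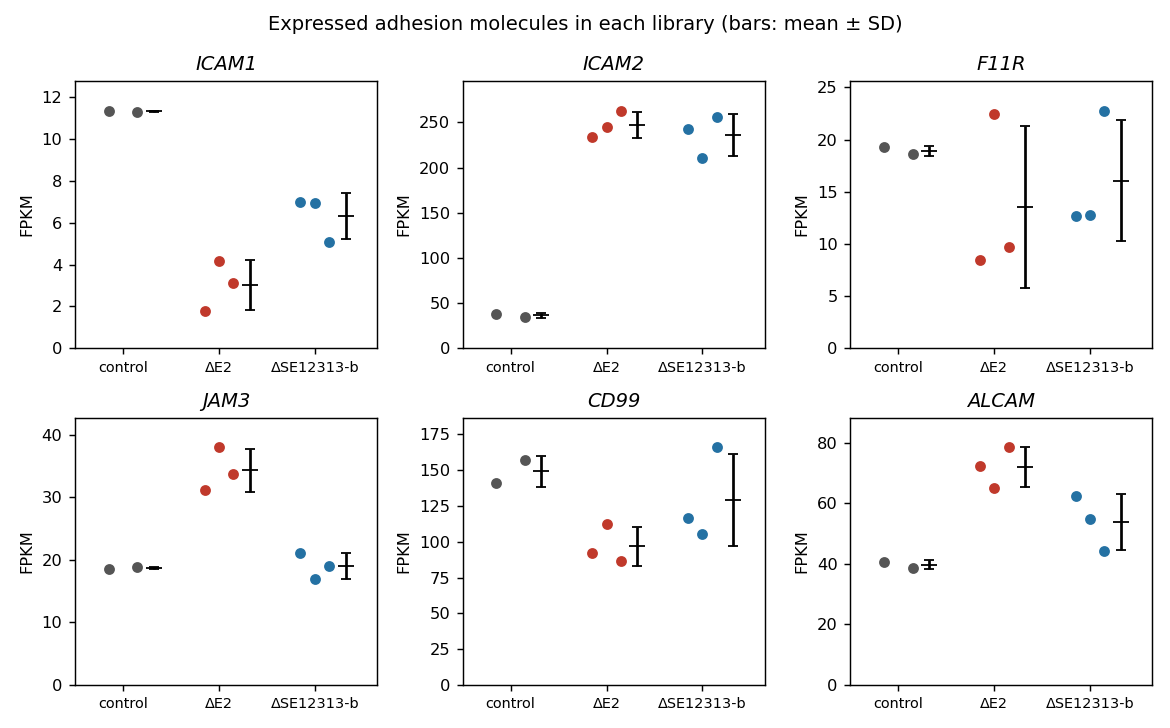
FPKM (linear axis from 0) of the 6 tested adhesion molecules in the 2 control, 3 ΔE2 and 3 ΔSE12313-b libraries, 1 point per library, with the mean and SD of each group beside the points. ICAM2 lay between 210 and 263 FPKM in all 6 clones and below 38 in both controls, whereas the clones of F11R spread over the level of the controls.

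ICAM2 was the adhesion molecule with the largest difference from the control in either deletion. Its level was 37.8 and 34.5 FPKM in the control libraries, 234, 245 and 263 in ΔE2, and 243, 210 and 256 in ΔSE12313-b. Every clone was several times above both controls, and the clones of the deletions overlapped. The mean was 6.84-fold higher in ΔE2 (247 ± 14.5 FPKM, SD, n = 3) and 6.54-fold higher in ΔSE12313-b (236 ± 23.3, n = 3). The log2 fold changes were 2.77 ± 0.10 (SE) in ΔE2, and 2.70 ± 0.10 in ΔSE12313-b. Their adjusted p values were 6.98e-07 and 7.62e-07 (limma, Benjamini-Hochberg). Of all genes tested, 97.9% had a lower log2 fold change than ICAM2 in ΔE2 and 97.8% in ΔSE12313-b. Between the deletions it differed by 0.07 on the log2 scale, with a 95% confidence interval from -0.14 to 0.28 and an adjusted p of 0.609 in limma with Benjamini-Hochberg adjustment. ICAM2 is listed with 5 transcripts on the minus strand of chr17:62079955-62097994 (GRCh37), and it overlaps PRR29 on the other strand, whose mean level was 0.0743 FPKM.

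ICAM1, the inducible partner of ICAM2 as an integrin ligand, was lower in the clones. The controls had 11.4 and 11.3 FPKM, the ΔE2 clones 1.76, 4.19 and 3.13, and the ΔSE12313-b clones 6.99, 6.97 and 5.07. The groups did not overlap, with ΔE2 lowest and ΔSE12313-b between it and the control. In ΔE2 the log2 fold change was -1.95 ± 0.32 (SE), with an adjusted p of 0.00133 in limma with Benjamini-Hochberg adjustment, and the mean was 3.75-fold lower (3.03 ± 1.21 FPKM, n = 3). The fall in ΔSE12313-b was smaller, -0.84 ± 0.32, and its adjusted p of 0.0489 (limma, Benjamini-Hochberg) was just under the threshold. It was above the threshold under 10 of 19 alternatives: without either control library, without any 1 of the ΔSE12313-b clones or ΔE2 clone 3 (adjusted p 0.0679 to 0.147 in limma with Benjamini-Hochberg adjustment over these 6), and under 4 other settings. Between the deletions ICAM1 was lower in ΔE2 by -1.11 ± 0.28 on the log2 scale, with an adjusted p of 0.0243 in limma with Benjamini-Hochberg adjustment. This adjusted p (limma, Benjamini-Hochberg) rose to 0.0564 without ΔE2 clone 3, 0.0776 without ΔSE12313-b clone 1 and 0.0675 without ΔSE12313-b clone 2. ICAM1 has 1 transcript in the table, on the plus strand of chr19:10381517-10397291 (GRCh37), and 109 to 467 reads in a library. Within ΔE2 the highest clone was 2.37-fold above the lowest, and 92.5% of all genes tested had a smaller SD there.

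The third integrin ligand, VCAM1, was represented by 1 read in all 8 libraries together, in ΔSE12313-b clone 3. SELE had 0 reads in every library. A count of 0 allows up to 3 reads, which for SELE correspond to 0.0407 to 0.0644 FPKM depending on the library, and levels below that were not detectable at this depth. SELP, the other selectin, had 4 and 1 reads in the control, 8, 11 and 11 in ΔE2, and 1, 0 and 0 in ΔSE12313-b. Each ΔE2 clone thus had more SELP reads than any other library, although the highest level was 0.256 FPKM. The rate of SELP reads was 2.98 times as high in ΔE2 as in the control, with an exact 95% interval from 1.15 to 9.84, and 28.2 times as high as in ΔSE12313-b (4.68 to 1149), a ratio whose denominator is 1 read. These intervals (Clopper-Pearson) cover counting error only and not the spread between clones. When the expression minimum was dropped, limma with Benjamini-Hochberg adjustment gave SELP an adjusted p of 0.0301 in ΔE2 against control and 0.00654 in ΔE2 against ΔSE12313-b. The same fit (limma, Benjamini-Hochberg) gave JAM2 an adjusted p of 0.0445 in ΔSE12313-b against control. JAM2 had 3 reads in the control and 0 in ΔSE12313-b, so without the minimum a gene could pass on very few reads.

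Among the junctional adhesion molecules JAM3 separated the deletions. It had 18.5 and 18.8 FPKM in the control, 31.1, 38.0 and 33.7 in ΔE2, and 21.0, 16.9 and 18.998 in ΔSE12313-b. All ΔE2 clones were above every other library, and the ΔSE12313-b clones lay on both sides of the controls. JAM3 rose in ΔE2 by 0.87 ± 0.11 (SE) on the log2 scale, with an adjusted p of 0.000465 in limma with Benjamini-Hochberg adjustment, a 1.84-fold change and under the 2-fold limit. In ΔSE12313-b the difference was 0.02, with a 95% confidence interval from -0.25 to 0.28 and an adjusted p of 0.90 in limma with Benjamini-Hochberg adjustment. Its sign there depended on scaling, since centring each library on the median gene gave -0.27 and quantile normalization -0.39, the latter with an adjusted p of 0.0185 in limma with Benjamini-Hochberg adjustment. The direct comparison of ΔE2 with ΔSE12313-b gave 0.85 ± 0.10, with an adjusted p of 0.00145 in limma with Benjamini-Hochberg adjustment. JAM3 lies on the plus strand of chr11:133938820-134021652 (GRCh37) and overlaps the small RNA gene SNORD153 on the other strand.

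F11R varied more between clones than between groups. The controls had 19.3 and 18.6 FPKM, ΔE2 8.45, 22.5 and 9.65, and ΔSE12313-b 12.7, 12.7 and 22.8. The clones were divided: ΔE2 clone 2 and ΔSE12313-b clone 3 were above both controls, while the other 4 clones were below them. The highest clone was 2.66-fold above the lowest in ΔE2 and 1.80-fold in ΔSE12313-b, and 94.6% and 88.5% of all genes tested had a smaller SD in those groups. F11R did not pass the test in either deletion, with log2 fold changes of -0.62 ± 0.42 (SE) in ΔE2 and -0.29 ± 0.42 in ΔSE12313-b and adjusted p of 0.241 and 0.569 in limma with Benjamini-Hochberg adjustment. Without ΔE2 clone 2 its value in ΔE2 was -1.06, with an adjusted p of 0.0157 in limma with Benjamini-Hochberg adjustment. JAM2, the remaining member of the family, had 1 and 2 reads in the control, 0, 2 and 0 in ΔE2, and 0 in each ΔSE12313-b clone, so that no fold is given.

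CD99 showed a similar division among the clones. It had 141 and 157 FPKM in the control, 91.8, 112 and 86.6 in ΔE2, and 116, 105 and 166 in ΔSE12313-b. The highest clone of each deletion was the same as for F11R, ΔE2 clone 2 and ΔSE12313-b clone 3, and only the latter was above the controls. CD99 fell in ΔE2 by 0.63 on the log2 scale (SE 0.19), with an adjusted p of 0.0265 (limma, Benjamini-Hochberg). Leaving out control 1, control 2, ΔE2 clone 1 or ΔE2 clone 3 gave an adjusted p from 0.0696 to 0.136 (limma, Benjamini-Hochberg). With quantile normalization the value in ΔE2 was -1.04 (adjusted p 0.0016 in limma with the same adjustment), past 2-fold. In ΔSE12313-b the value was -0.23, with a 95% confidence interval from -0.68 to 0.22 and an adjusted p of 0.328, and without ΔSE12313-b clone 3 it was -0.43, with an adjusted p of 0.0283 (limma, Benjamini-Hochberg). Quantile normalization moved it to -0.80, with an adjusted p of 0.00545 (limma, Benjamini-Hochberg). CD99 lies in the pseudoautosomal region that X and Y share, the table lists its transcripts on both, and how reads were divided between the copies is not given in the sources used here.

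ALCAM was higher in all clones than in the controls. It had 40.8 and 38.7 FPKM in the control, 72.4, 65.3 and 78.5 in ΔE2, and 62.6, 54.8 and 44.3 in ΔSE12313-b. The 3 groups did not overlap, with ΔSE12313-b between the control and ΔE2. ALCAM rose in ΔE2 by 0.85 ± 0.14 (SE) on the log2 scale, with an adjusted p of 0.0016 (limma, Benjamini-Hochberg), a change of 1.81-fold. In ΔSE12313-b it rose by 0.43 ± 0.14, with an adjusted p of 0.033 in limma with Benjamini-Hochberg adjustment, but this did not hold under every scaling: the value was 0.14 (adjusted p 0.438) with centred libraries and -0.07 (adjusted p 0.720) with quantile normalization. It was also past the threshold no longer when either control library, ΔE2 clone 1 or ΔSE12313-b clone 1 or 2 was left out (adjusted p 0.0501 to 0.147 in limma with Benjamini-Hochberg adjustment). Between the deletions ALCAM was higher in ΔE2 by 0.43 ± 0.13, with an adjusted p of 0.0429 in limma with Benjamini-Hochberg adjustment. That adjusted p (limma, Benjamini-Hochberg) rose to between 0.0677 and 0.131 when control 1, control 2, ΔE2 clone 1, ΔE2 clone 3, or ΔSE12313-b clone 2 or 3 was left out.

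Counted together, 3 adhesion molecules rose (ICAM2, JAM3 and ALCAM) and 2 fell (ICAM1 and CD99) in ΔE2, where 34.7% of all genes tested rose and 19.4% fell. Past 2-fold there were 1 upregulated (ICAM2) and 1 downregulated (ICAM1), against 11.2% and 8.36% of all genes tested. In ΔSE12313-b 2 rose (ICAM2 and ALCAM) and 1 fell (ICAM1), where 43% of all genes rose and 16.4% fell, and 1 (ICAM2) was upregulated past 2-fold and 0 were downregulated, against 14.7% and 7.83%. In ΔE2 against ΔSE12313-b 2 were higher (JAM3 and ALCAM) and 1 was lower (ICAM1), where 6.69% of all genes were higher and 19.3% lower, and 0 were higher and 1 (ICAM1) lower past 2-fold, against 1.6% and 2.63%. With so large a share of all genes past the test, these counts by themselves do not set the adhesion molecules apart. The 6 tested molecules had a median log2 fold change of 0.11 for ΔE2 and -0.11 for ΔSE12313-b, beside 0.14 and 0.27 for all genes tested. The comparisons of both deletions with the control share the same 2 control libraries. FPKM was scaled to all reads of a library. The share of those reads on genes was lower in both controls than in every clone. It was, for example, 8151528 of 12696173 reads in control 1 and 12463688 of 15890257 in ΔSE12313-b clone 3. The part of that share in the medians of all genes was not tested. Because the median gene was shifted upwards, centring turned the balance of all calls, from 1544 upregulated and 1153 downregulated genes to 1170 and 1464 in ΔE2, and from 2032 and 1080 to 1201 and 1570 in ΔSE12313-b. With centred libraries ICAM2 had log2 fold changes of 2.61 and 2.41 and ICAM1 of -2.11 and -1.13, so that ICAM1 was then also called downregulated in ΔSE12313-b.

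**Figure D2:**
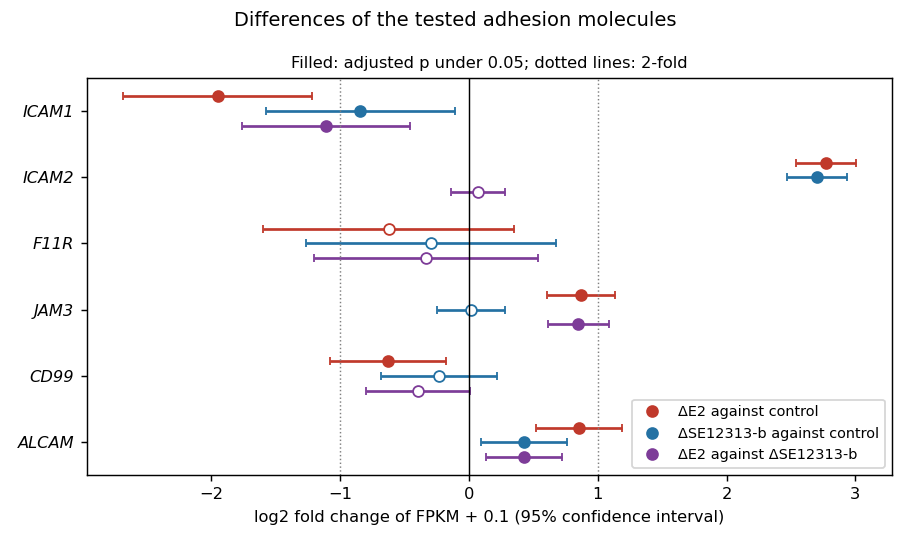
Log2 fold change of FPKM + 0.1 with its 95% confidence interval for the 6 tested adhesion molecules, for either deletion against the control and between the deletions, filled where the adjusted p was under 0.05. ICAM2 lies beyond 2.4 in both deletions with an interval of their difference that spans 0, whereas JAM3 is at 0.87 in ΔE2 and 0.02 in ΔSE12313-b.

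The machinery around the adhesion molecules was described with 5 lists of 61 genes in all, of which 53 were tested. Past 2-fold, 7 were upregulated and 3 downregulated in either deletion, beside the shares of all genes tested (11.2% and 8.36% for ΔE2, 14.7% and 7.83% for ΔSE12313-b). The first list holds proteins of junctions and transmigration, with 10 of 12 tested. In ΔE2 4 of them rose and 0 fell, and in ΔSE12313-b 4 rose and 2 fell. Among all genes tested 34.7% rose and 19.4% fell in ΔE2, and 43% and 16.4% did so in ΔSE12313-b. PECAM1, which binds itself across the gap between endothelial cell and leukocyte, was upregulated in ΔE2 (log2 fold change 1.11) and in ΔSE12313-b (2.10). ESAM, a junctional molecule of endothelium and platelets, was upregulated in ΔE2 (1.08). The list had a median of 0.23 for ΔE2 and 0.29 for ΔSE12313-b, beside 0.14 and 0.27 for all genes tested.

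The second list holds other ligands that leukocytes use, with 10 of 15 tested. In ΔE2 3 rose and 3 fell, where 34.7% and 19.4% of all genes tested did so. In ΔSE12313-b 2 rose and 4 fell, where 43% and 16.4% did so. CD34, a sialomucin of the endothelial surface, was upregulated in ΔE2 by 2.84 ± 0.40 (SE) and in ΔSE12313-b by 1.14 ± 0.40 on the log2 scale. It was the 1 gene of the 5 lists called between the deletions, where it was higher in ΔE2 by 1.70 ± 0.36, with an adjusted p of 0.0116 in limma with Benjamini-Hochberg adjustment. ICAM5, a relative of ICAM1 known from neurons, was downregulated in both deletions (-1.79 and -2.06), as was AOC3, the vascular adhesion protein that is also an amine oxidase (-1.13 and -1.59). CD58, the ligand of CD2 on T cells, was upregulated in ΔSE12313-b (1.01). The median was -0.09 in ΔE2 and 0.11 in ΔSE12313-b, beside 0.14 and 0.27 for all genes tested.

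The cytoplasmic tails of ICAM1, ICAM2 and VCAM1 are tied to the actin cortex under the membrane by ezrin-type linkers and their partners, and all 11 genes of that list were tested. In ΔE2 7 rose and 0 fell, where 34.7% and 19.4% of all genes did so, and in ΔSE12313-b 8 rose and 0 fell, where 43% and 16.4% did so. Whether the list differs from all genes was not tested. Ezrin itself (EZR) was upregulated in ΔE2, by 1.25 ± 0.08 (SE) on the log2 scale with an adjusted p of 1.47e-05 in limma with Benjamini-Hochberg adjustment. CTTN (cortactin) was upregulated in both deletions (1.18 and 1.34), as was CAV1 (caveolin-1; 1.81 and 1.20). The list had a median of 0.38 for ΔE2 and 0.51 for ΔSE12313-b, against 0.14 and 0.27 for all genes tested.

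Of the genes of NF-κB and tumour necrosis factor signalling, 18 of 19 were tested. In ΔE2 5 rose and 4 fell, and in ΔSE12313-b 7 rose and 4 fell, with medians of 0.11 and 0.21. These values were near those of all genes tested, of which 34.7% rose and 19.4% fell in the former and 43% and 16.4% in the latter, with medians of 0.14 and 0.27. RELB, the NF-κB subunit of the alternative pathway, was downregulated by 1.52 in ΔE2 and 1.51 in ΔSE12313-b on the log2 scale, with adjusted p of 0.000473 and 0.000399 in limma with Benjamini-Hochberg adjustment. CHUK, the kinase that acts in the same pathway, was upregulated in ΔSE12313-b (1.07). The sheddases, proteases that cut adhesion molecules off the cell surface, were all tested: 2 of 4 fell in ΔE2 and 1 of 4 in ΔSE12313-b, and none was past 2-fold. The medians of this list were -0.15 and -0.12.

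**Figure D3:**
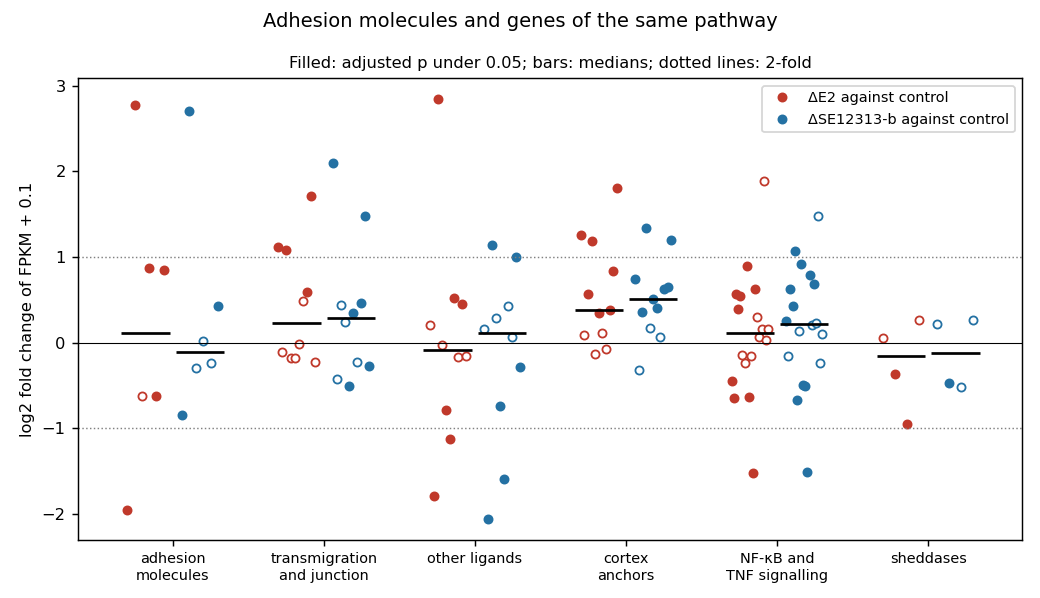
Log2 fold change of FPKM + 0.1 against control in ΔE2 and ΔSE12313-b for the tested adhesion molecules and the 5 lists of related genes, 1 point per gene, filled where the adjusted p was under 0.05, with bars at the medians. No cortex anchor that passed the test lies below 0, whereas the other lists of ligands and of signalling have points on both sides.

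Genes that start within 500 kb of each tested molecule were compared with it. Around ICAM2 22 other genes were tested, and all had a lower log2 fold change than ICAM2 in either deletion. Of all genes tested 97.9% and 97.8% were lower too, so this count does not set the surroundings of ICAM2 apart. The highest of these neighbours in both was PECAM1, 309 kb away. Around ICAM1 33 were tested, with medians of 0.19 and 0.16, and past 2-fold 2 were upregulated and 3 downregulated in ΔE2 and 3 and 3 in ΔSE12313-b, beside 11.2% and 8.36%, and 14.7% and 7.83%, of all genes tested. Of the 33, 1 had a lower value than ICAM1 in ΔE2 and 5 in ΔSE12313-b. ICAM5 is among the downregulated ones, with its start 19.1 kb from that of ICAM1, and its mean of 2.13 FPKM in the control stood against 0.563 for ΔE2 and 0.448 for ΔSE12313-b. Around JAM3 5 genes were tested. Past 2-fold, 2 of them were upregulated in ΔE2 (NCAPD3 and VPS26B) and 1 in ΔSE12313-b (NCAPD3), beside 11.2% and 14.7% of all genes tested. With 5 genes these counts do not set the surroundings of JAM3 apart. NCAPD3 and VPS26B, named after their values were seen, both start 156 kb from the start of JAM3. NCAPD3, a subunit of condensin II, had log2 fold changes of 2.60 in ΔE2 and 1.32 in ΔSE12313-b, and VPS26B, a subunit of retromer, 1.73 and 0.52. Around ALCAM 0 other genes were tested.

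Across the 8 libraries, the 3 tested genes whose log2 levels were most like those of ICAM2 were PSMA4, PKM and SRSF3, each with a Pearson r of 0.999. These points fall into 2 separate levels, controls and clones, and 2419 genes had an r above 0.9 with ICAM2. For ICAM1 they were ATG4B (0.985), PFKFB2 (0.981) and SLC35C2 (0.979), and 234 genes had an r above 0.9.

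The labelled cell type was checked against markers. Of 10 endothelial markers 8 were tested, among them CDH5 (VE-cadherin) with a mean of 103 FPKM in the control, and the summed level of the list ranged over 193 to 196 FPKM among control libraries, 168 to 287 among ΔE2 clones and 166 to 222 among ΔSE12313-b clones. The endothelial tight junction gene CLDN5 had 0 reads in every library. Of the 8 tested, 4 rose and 3 fell in ΔE2, beside 34.7% and 19.4% of all genes tested. In ΔSE12313-b 2 of the 8 rose and 1 fell, beside 43% and 16.4%. PECAM1 was among the markers upregulated in both, and VWF fell in both (log2 fold changes -1.72 and -1.80). Of 6 epithelial markers the 3 tested, KRT7, KRT8 and KRT18, were upregulated in both deletions, and the summed level of the list ranged over 361 to 363, 1084 to 1210 and 811 to 1069 FPKM in the same order. This sum came almost wholly from the 3 keratins, which were higher in the clones, as ICAM2 was. Their part in the ICAM2 result was not tested. EPCAM, below the expression minimum, went the other way, with means of 0.40, 0.19 and 0.05 FPKM in the same order. KRT19 had at most 4 reads in a library. CDH1, the cadherin that defines epithelium, had 0 reads in every library. Of 10 leukocyte genes, 8 had 3 reads or fewer in each control library, 7 in each ΔE2 clone and 8 in each ΔSE12313-b clone, and SPI1, CD3E and CD6, the partner of ALCAM, had 0 reads in all libraries.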

How the data were processed

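RNA without the ribosomal fraction was read in single-end reads of 75 cycles with a directional kit. The submitters' processing notes name Trim Galore 0.4.4, STAR 2.5.4b, featureCounts and GRCh37. The authors deposited 1 table of FPKM with 65572 RefSeq transcripts. The tool and the strand setting behind it are not given in the sources used here. FPKM times transcript length gave whole reads (within 0.1 read) for at least 99.98% of the values checked in each library. These reads were used for depth, low genes and 1 alternative.

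A gene was represented by its highest transcript on average and was tested if 2 or more libraries reached an FPKM of 0.5. The test was limma 3.58.1 (R 4.3.3) for log2(FPKM + 0.1) (3 groups in one model, empirical Bayes with trend, two-sided, Benjamini-Hochberg adjustment over 13790 genes). DEGs changed at least 2-fold with an adjusted p under 0.05. The p-values measure the spread between clones, and between 2 control libraries whose origin in separate cultures is not stated. That pair differed little beyond counting error (chi-square per degree of freedom 1.19). Any spread between control cultures or control clones may therefore be missing from the comparisons with the control. The steps were tested on simulated data. The counts that the authors gave to edgeR were not used here.

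The adhesion molecules and all gene lists were chosen with earlier results of these data known. Named were all 10 adhesion molecules, up to 4 called genes per list and deletion with the largest change, the 3 genes most correlated with the called molecule of largest rise and of largest fall in ΔE2, and up to 4 markers per cell type. NCAPD3 and VPS26B were named after their values were seen. Some genes that the rule names are not reported here. Promoter sequences are from RefSeq, whose build differs from that of the table, and none of its coordinates were carried over. Alternatives were other pseudocounts (0.01 and 1), filters, scalings, voom on reads, a replicate block, other transcripts, other limits and leaving out each library.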

Additional observations from a re-analysis of the deposited data

Results flagged for a closer look

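For 3 adhesion molecules the effects of the deletions differed from each other by the direct limma comparison of ΔE2 with ΔSE12313-b, with Benjamini-Hochberg adjustment over all genes tested. By that comparison 6.69% of all genes tested were higher and 19.3% lower in ΔE2. ICAM1 was lower in ΔE2, by -1.11 on the log2 scale (adjusted p 0.0243), with all 3 ΔE2 clones below all 3 ΔSE12313-b clones. JAM3 was higher in ΔE2, by 0.85 (adjusted p 0.00145), and ALCAM was higher in ΔE2, by 0.43 (adjusted p 0.0429), again without overlap of the clones. The share of all genes without such overlap was not counted. Of the 3 molecules, JAM3 passed the test under all 19 alternatives, ICAM1 under 16 and ALCAM under 9.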

How the results depend on the processing

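Over 19 alternatives ICAM2 in both deletions, and ICAM1, JAM3 and ALCAM in ΔE2, kept their direction and an adjusted p under 0.05 (limma, Benjamini-Hochberg). With a limit of 1.5-fold, DEGs among the adhesion molecules were 5 in ΔE2, 2 in ΔSE12313-b and 2 between the deletions, and among the pathway genes 18, 19 and 4. In ΔSE12313-b 2 molecules were called with centred libraries and 2 with quantile normalization, 5 pathway genes with a pseudocount of 1, and 1 molecule passed an adjusted p under 0.05 without the trend and 1 a limit of 0.01. Between the deletions 0 molecules were called with a pseudocount of 1, centring, quantile normalization or a limit of 0.01, and 2 without the expression minimum, SELP being the second. At 0.01, 1 molecule and 0 pathway genes were past the threshold there. Leaving out 1 library at a time gave 1 to 3 molecules past the test in ΔSE12313-b and 1 to 3 between the deletions, and between the deletions 0 to 1 molecules and 1 to 2 pathway genes called. The sign changed for JAM3 in ΔSE12313-b (-0.27 centred, -0.39 with quantiles, -0.057 to 0.097 when 1 library was left out), ALCAM in ΔSE12313-b (-0.067 with quantiles) and ICAM2 between the deletions (-0.012 to 0.13 when 1 library was left out). Without the expression minimum more genes were tested, and the cause of the other changes was not tested.

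Libraries with the same replicate number did not deviate together (r from -0.0804 to 0.107 over 7 pairs), so the numbers do not pair the samples. With a replicate block, ICAM1 in ΔSE12313-b was -0.80 (adjusted p 0.0865) and ALCAM between the deletions 0.43 (0.0764) in limma with Benjamini-Hochberg adjustment, and no other adhesion molecule changed its side of the threshold. DEGs among the molecules were then 2, 1 and 1. With 2 control libraries and 3 clones per deletion, F11R, whose clones differed widely, could not be separated from the control.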
